A study of Mus musculus with 10 samples.

Results

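This account follows 10 genes of the fat cell in osteoblasts, the bone-forming cells, of newborn mice. The genes are Adipoq, Pparg, Cebpa, Cebpb, Fabp4, Plin1, Cfd, Lpl, Cd36 and Retn. They were taken by name: every probe set that the array's annotation assigns to 1 of these symbols was included, whatever its values. That gave 15 probe sets of 8 genes among the 45101 of the array, and Plin1 and Cfd had no probe set listed under their symbol. Total RNA was measured on 10 arrays. The first group was 3 arrays of mice with constitutively expressed β-catenin in osteoblasts (β-catenin active here), the second 3 arrays of mice with FoxO1 deleted in osteoblasts (FoxO1 deleted), and the third 4 arrays of wild-type mice. All were labelled with the strain C5BL6, an age of 2 to 3 days and an indeterminate sex. The promoter or Cre line behind each alteration, and whether an array holds 1 animal, a pool or a culture, are not given in the sources used here. The p-values therefore cover only how far these arrays differ, and part of that may be technical.

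Adipocytes and osteoblasts come from related mesenchymal precursors, and the adipocyte fate is set by a short cascade of transcription factors. C/EBPβ, the product of Cebpb, acts early and helps to switch on Pparg and Cebpa, whose products PPARγ and C/EBPα then keep each other active and turn on the genes of lipid uptake, storage and secretion. Wnt signalling through β-catenin is known to restrain that cascade in precursor cells, and FoxO1 is known to take part in it.

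Values are the deposited log2 MAS5 signal, and differences are log2 differences. The 10 array medians lay between 7.02 and 7.22, and the median of the whole table was 7.15. Osteoblast markers were high in every array: Col1a1 lay between 15.04 and 15.35 and Ibsp between 14.59 and 14.95. Markers of other cell types were high too. Of skeletal muscle, Acta1 lay between 14.26 and 15.16 and Myh8 between 12.51 and 14.19. The macrophage marker Csf1r lay between 13.04 and 13.58, and the chondrocyte marker Col2a1 between 11.54 and 14.02. The wild-type arrays formed pairs: arrays 1 and 2 correlated at r = 0.988 and arrays 3 and 4 at 0.987, against 0.971 to 0.972 across the pairs. Xist, the RNA of the inactive X chromosome in female cells, was low in all 3 β-catenin active arrays (5.91 to 7.06), in FoxO1 deleted 1 (7.88) and in wild type 1 and 2 (8.96 and 7.29), and high in the other arrays (14.05 to 14.43). The genotypes thus differ in this mix. The 3′ minus 5′ signal of Actb, a sign of RNA integrity, was 0.85 to 0.88 in β-catenin active, 0.80 to 0.99 in FoxO1 deleted and 0.60 to 0.77 in wild-type arrays. The 3′ bias thus moved with genotype, and its part in the results below was not tested. Ctnnb1 lay between 14.42 and 14.49 in β-catenin active arrays and between 14.35 and 14.56 in wild-type arrays. Foxo1 lay between 9.67 and 10.13 in FoxO1 deleted arrays and between 9.93 and 10.09 in wild-type arrays. The altered part of each gene is not given, so these probe sets do not check the labels.

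Adipoq, which encodes the adipocyte hormone adiponectin, varied most between arrays of the same genotype among the 13 probe sets that passed the filter on low values, which asks that the third-highest of 10 values lie above the table's median. Pparg and Retn, which did not pass it, spread further in single genotypes, as given below. Its probe set 1422651_at measured 6.54, 9.14 and 8.35 in β-catenin active arrays, 9.05, 6.78 and 9.25 in FoxO1 deleted arrays, and 7.59, 7.73, 7.74 and 7.84 in wild-type arrays. FoxO1 deleted 1 and 3 and β-catenin active 2 and 3 lay above all wild-type arrays, and β-catenin active 1 and FoxO1 deleted 2 lay below all of them. The highest and lowest arrays differed 6.06-fold within β-catenin active, 5.54-fold within FoxO1 deleted and 1.19-fold within wild type. The mean was 8.01 ± 1.33 in β-catenin active, 8.36 ± 1.37 in FoxO1 deleted and 7.72 ± 0.10 in wild-type arrays (SD, n = 3, 3 and 4).

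The pooled SD of Adipoq within genotypes was 1.02 log2. Among the 2393 tested probe sets with a mean within 0.25 log2 of that of Adipoq, the median SD was 0.24, and 99.2% had a smaller SD than Adipoq. The other tested members spread less: the pooled SD was 0.40 for Cebpb 1418901_at, 0.42 for Fabp4 1451263_a_at and 0.30 for Lpl 1415904_at, which exceeded 97.1%, 96% and 93.6% of the probe sets at a like level. Cebpa, at 0.27, exceeded 48%.

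**Figure D1:**
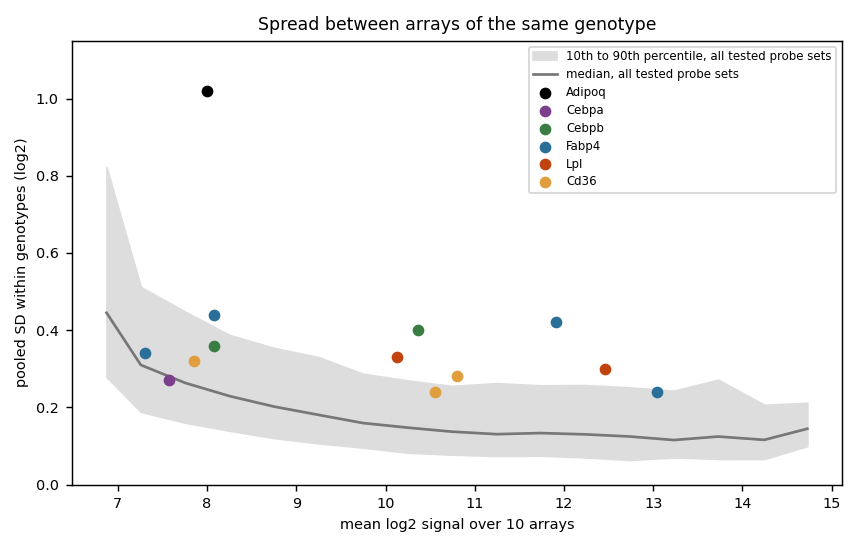
The pooled SD between arrays of the same genotype (y axis, log2) is plotted against the mean log2 signal over 10 arrays (x axis) for the 13 tested adipocyte probe sets (points, coloured by gene). The grey line is the median and the band the 10th to 90th percentile of all tested probe sets, and Adipoq stands at 1.02, above the band.

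With that spread no genotype difference in Adipoq could be resolved. The fitted difference was 0.29 ± 0.62 log2 for β-catenin active against wild type (SE; 95% interval −1.07 to 1.64, limma adjusted p = 0.917) and 0.63 ± 0.62 for FoxO1 deleted against wild type (−0.72 to 1.99, adjusted p = 0.831). Between the altered genotypes it was −0.35 ± 0.66 (−1.80 to 1.1, adjusted p = 0.963). Single arrays set these values: leaving out β-catenin active 1 moved β-catenin active minus wild type to 1.02, and leaving out β-catenin active 2 moved it to −0.28. FoxO1 deleted minus wild type was 1.42 with FoxO1 deleted 2 left out and 0.19 with FoxO1 deleted 3 left out. In bulk RNA, fewer cells of a type and less RNA per cell cannot be told apart, here or in the results that follow.

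The 250 bases upstream of the gene starts are shown for Adipoq, which spread most among the members that passed the filter, and for Cd36, whose unadjusted p against wild type was the smallest among them, as RefSeq gives them for build GRCm38.p6. Of the 10 members, 8 had an entry, and Fabp4 and Lpl had none. Adipoq lies on the forward strand at chr16:23146286-23146535 and Cd36 on the reverse strand at chr5:17835897-17836146. Capitals mark matches on either strand to CCAAT, the CCAAT box, and to AGGTCA, the half-site bound by PPARγ and other nuclear receptors.
Adipoq: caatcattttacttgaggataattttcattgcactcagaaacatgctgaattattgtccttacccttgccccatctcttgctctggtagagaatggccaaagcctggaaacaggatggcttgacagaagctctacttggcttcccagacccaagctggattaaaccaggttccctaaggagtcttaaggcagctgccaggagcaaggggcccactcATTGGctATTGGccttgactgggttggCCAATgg
Cd36: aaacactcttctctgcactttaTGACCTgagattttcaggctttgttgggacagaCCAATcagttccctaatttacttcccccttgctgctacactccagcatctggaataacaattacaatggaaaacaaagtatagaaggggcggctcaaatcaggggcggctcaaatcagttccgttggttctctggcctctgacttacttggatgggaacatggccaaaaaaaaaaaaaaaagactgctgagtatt
Adipoq held 3 CCAAT matches, starting at bases 217, 224 and 244 of the window. Cd36 held 1 AGGTCA match at base 23 and 1 CCAAT match at base 56. Of 32851 promoter windows of the same length, 33.8% held CCAAT and 14.0% held AGGTCA. The other motifs searched were AGGTCA repeated in the same direction with 1 base between, TTGCNNAA (C/EBP), GTAAACA (FoxO) and CTTTGAT (TCF/LEF), found in 0.0335%, 9.56%, 3.17% and 3.21% of windows. These 4 had 0 matches in both windows. The first of them, a direct repeat bound by PPARγ with its partner RXR, contains the half-site. A match describes letters in this window and is no evidence of binding.

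The genes whose pattern over the 10 arrays lay closest to that of Adipoq were Acaa2, Washc3, Sh3glb1, Phyh and Gm15867, out of 11356 other genes. Their Pearson r with Adipoq was 0.951, 0.936, 0.916, 0.915 and 0.912, and their Spearman rho 0.867, 0.948, 0.915, 0.954 and 0.915. These correlations describe 10 arrays that share 1 normalization and come from 3 genotypes, and they carry no test. Acaa2, a mitochondrial thiolase of fatty acid β-oxidation, measured 10.46, 11.20 and 10.93 in β-catenin active arrays, 10.97, 10.42 and 10.98 in FoxO1 deleted arrays, and 10.66 to 10.71 in wild-type arrays. Phyh, a peroxisomal enzyme of fatty acid α-oxidation, measured 9.56, 9.89 and 9.89 in β-catenin active arrays, 9.87, 9.53 and 9.99 in FoxO1 deleted arrays, and 9.66 to 9.86 in wild-type arrays. Like Adipoq, both were lowest in β-catenin active 1 and FoxO1 deleted 2, but over a much narrower range.

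The other adipocyte genes did not share the Adipoq pattern closely. The highest r with Adipoq was 0.58 for Lpl 1415904_at, and 1063 of the 11356 genes were closer. Cd36 gave r between 0.06 and 0.52 over its 3 probe sets, Cebpb 0.31 and 0.36, Pparg −0.09 and Retn 0.09. Cebpa, at −0.43, and the 4 probe sets of Fabp4, at −0.54 to −0.29, ran the other way.

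**Figure D2:**
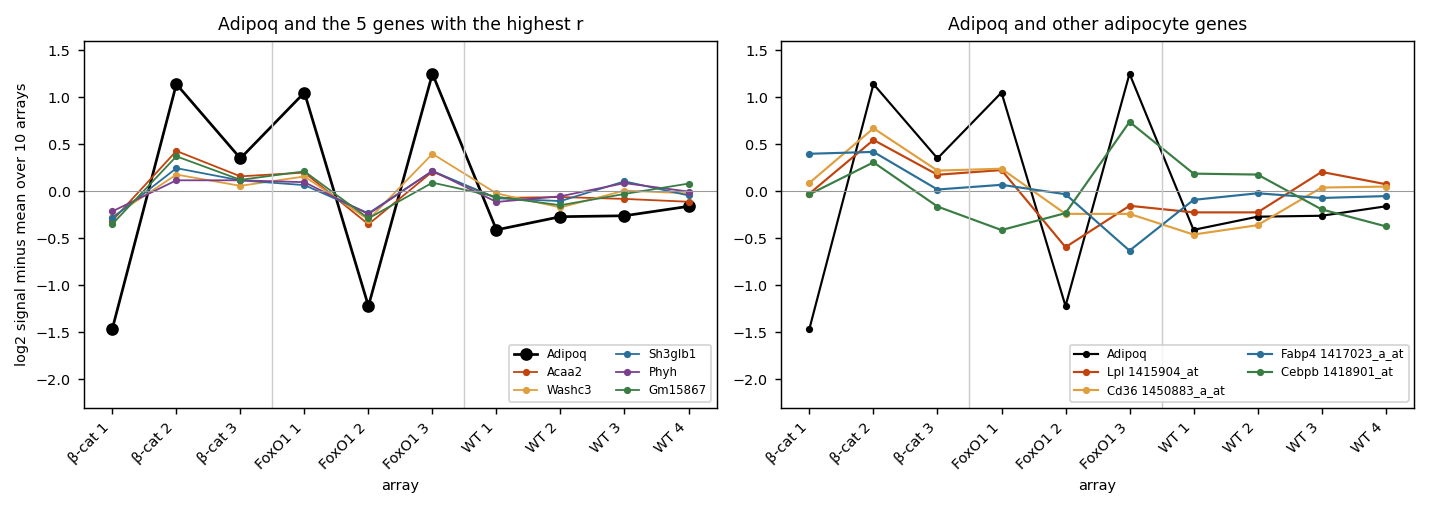
Log2 signal minus its mean over 10 arrays (y axis) is plotted for each array (x axis), for Adipoq with the 5 genes of highest r (left) and with other adipocyte genes (right). Adipoq dips in β-catenin active 1 and FoxO1 deleted 2, at 6.54 and 6.78, and is nearly flat over the wild-type arrays.

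Among the transcription factors, Pparg was low throughout. Pparg, the adipocyte master regulator, measured 6.54, 6.51 and 3.13 in β-catenin active arrays, 5.79, 5.73 and 6.54 in FoxO1 deleted arrays, and 6.85, 6.14, 6.01 and 6.02 in wild-type arrays with probe set 1420715_a_at. It lay below the table's median of 7.15 in all 10 arrays and therefore did not pass the filter on low values. Fitted without that filter, Pparg differed by −0.86 in β-catenin active and −0.24 in FoxO1 deleted against wild type (limma adjusted p = 0.803 and 0.965). The first of these values leans on β-catenin active 3, which stood at 3.13.

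Cebpa, the partner of Pparg in late differentiation, lay near the table's median. Probe set 1418982_at measured 7.92, 7.62 and 7.45 in β-catenin active arrays, 7.55, 7.82 and 7.46 in FoxO1 deleted arrays, and 7.73, 7.81, 7.15 and 7.23 in wild-type arrays. The groups overlapped, with differences of 0.18 ± 0.21 in β-catenin active and 0.13 ± 0.21 in FoxO1 deleted against wild type (SE, limma adjusted p = 0.824 and 0.907). Cebpa is also used by granulocyte precursors, and the summed linear signal of 8 tested neutrophil and granulocyte precursor markers ran from 2780 to 3770 in β-catenin active, 1280 to 10200 in FoxO1 deleted and 13800 to 29600 in wild-type arrays. Within wild type Cebpa was higher in arrays 1 and 2, which held the higher of these sums. The highest Cebpa value of all stood in β-catenin active 1, where the sum was 3770. The part of granulocyte RNA in Cebpa was not tested.

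Cebpb, the early factor of the cascade, was well above the median of the table in every array. Probe set 1418901_at measured 10.33, 10.67 and 10.20 in β-catenin active arrays, 9.95, 10.13 and 11.10 in FoxO1 deleted arrays, and 10.55, 10.54, 10.17 and 9.99 in wild-type arrays. FoxO1 deleted 3 was the highest array and FoxO1 deleted 1 the lowest, so the spread lay within 1 genotype. The second probe set, 1427844_a_at, ran from 7.61 to 8.72 with the same highest array and r = 0.92 with the first. Against wild type the differences were 0.09 ± 0.25 and 0.18 in β-catenin active and 0.08 ± 0.25 and 0.10 in FoxO1 deleted (limma adjusted p of 0.852 or more). FoxO1 deleted 3 also held the highest summed macrophage signal, 30800 against at most 24900 in any other array. The part of macrophage RNA in Cebpb was not tested.

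Retn, which encodes the adipocyte hormone resistin in mice, was also below the table's median in every array. Probe set 1449182_at measured 7.01, 6.53 and 6.5 in β-catenin active arrays, 6.44, 4.25 and 4.42 in FoxO1 deleted arrays, and 4.74, 3.29, 6.62 and 6.31 in wild-type arrays. All 3 β-catenin active arrays lay above the FoxO1 deleted arrays, narrowly (6.5 against 6.44). They overlapped with the upper wild-type arrays, which were spread from 3.29 to 6.62. Retn did not pass the filter on low values either. Without the filter the difference was 1.44 for β-catenin active and −0.20 for FoxO1 deleted against wild type (limma adjusted p = 0.634 and 0.973). Between β-catenin active and FoxO1 deleted it was 1.64 (limma adjusted p = 0.77).

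**Figure D3:**
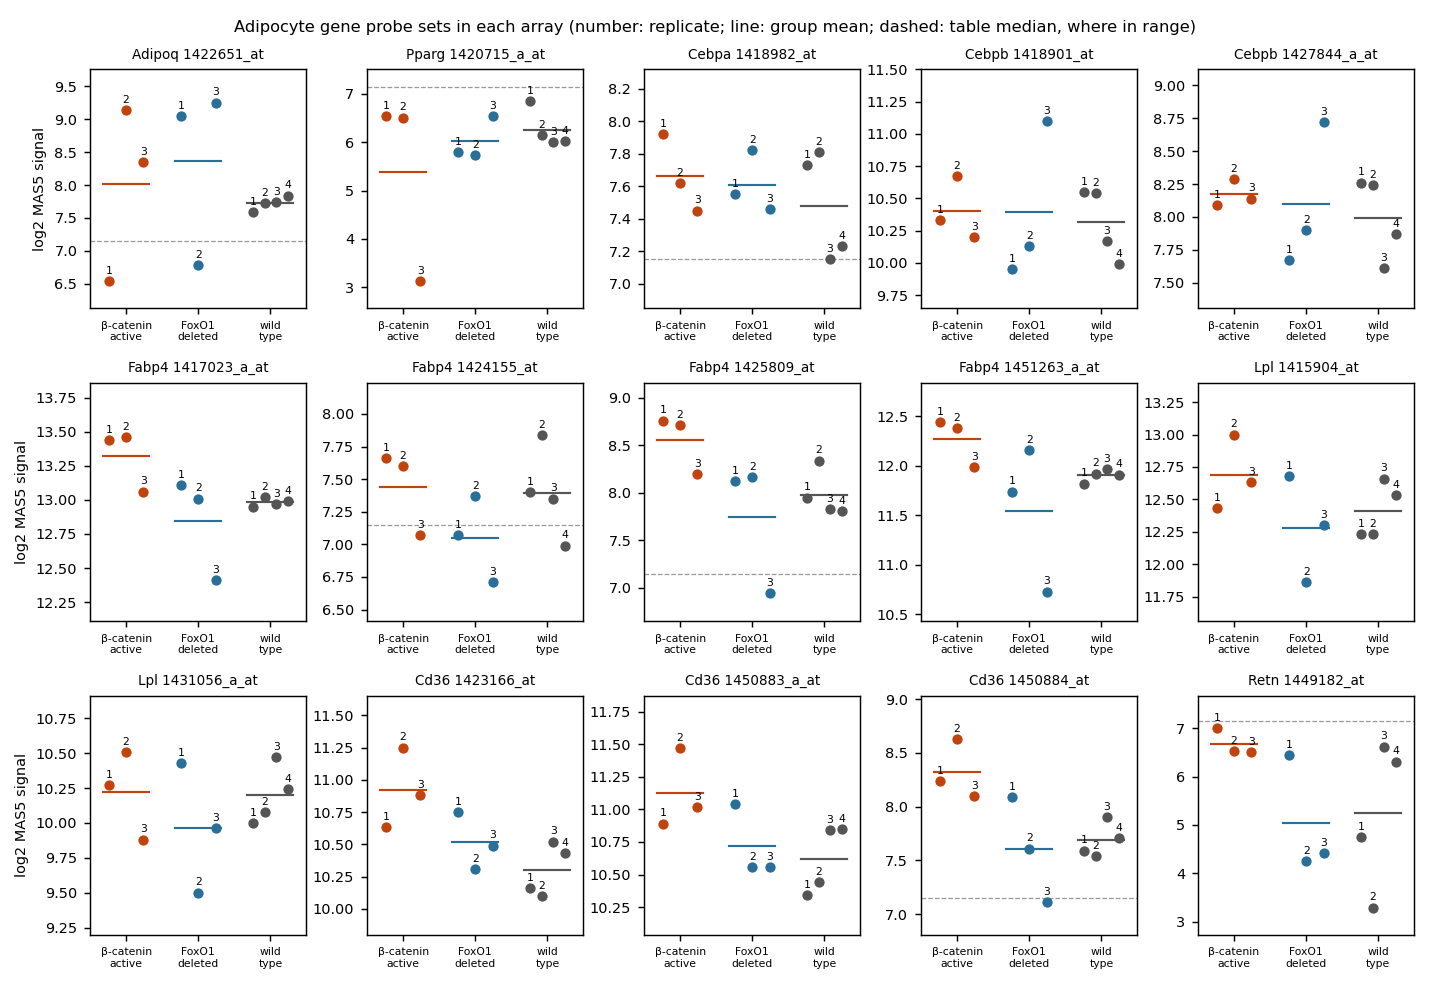
Each panel is 1 of the 15 adipocyte probe sets, with log2 MAS5 signal on the y axis and β-catenin active, FoxO1 deleted and wild type from left to right. Numbers name the replicate, short lines are group means and the dashed line is the table's median. The Adipoq panel shows the 6.54 to 9.25 spread, and in the 3 Cd36 panels every β-catenin active array lies above every wild-type array.

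Of the members that handle fatty acids, Cd36 came closest to a genotype difference. Cd36 is a membrane receptor that takes up long-chain fatty acids, and it is also made by capillary endothelium and macrophages. Probe set 1423166_at measured 10.63, 11.25 and 10.88 in β-catenin active arrays, 10.75, 10.31 and 10.49 in FoxO1 deleted arrays, and 10.16, 10.10, 10.52 and 10.43 in wild-type arrays. Every β-catenin active array lay above every wild-type array, narrowly: the lowest of the first was 10.63 and the highest of the second 10.52. Probe set 1450883_a_at measured 10.89, 11.47 and 11.02 in β-catenin active arrays, 11.04, 10.56 and 10.56 in FoxO1 deleted arrays, and 10.34, 10.44, 10.84 and 10.85 in wild-type arrays. Probe set 1450884_at measured 8.24, 8.63 and 8.10 in β-catenin active arrays, 8.09, 7.61 and 7.11 in FoxO1 deleted arrays, and 7.59, 7.54, 7.90 and 7.71 in wild-type arrays. Both repeated the separation of β-catenin active from wild type. Over 10 arrays the 3 probe sets correlated with each other at r = 0.79 to 0.96, and since they read 1 gene in the same RNA they are not independent.

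The Cd36 difference between β-catenin active and wild type was 0.62 ± 0.16 log2 for 1423166_at (SE; 95% interval 0.27 to 0.97, 1.53-fold, limma unadjusted p = 0.00243). It was 0.51 ± 0.18 for 1450883_a_at and 0.64 ± 0.22 for 1450884_at. After adjustment over all 20127 tested probe sets none passed (limma adjusted p = 0.135, 0.277 and 0.277). The difference for 1423166_at stayed between 0.45 and 0.79 under every alternative run. Its limma adjusted p ran from 0.0774, with arrays weighted by quality, to 0.677, with wild-type pairs averaged. The differences for 1450883_a_at and 1450884_at ran from 0.34 to 0.74 and from 0.48 to 0.76. Their adjusted p ran from 0.105 to 0.858 and from 0.125 to 0.875. Against wild type, FoxO1 deleted arrays differed by 0.21 ± 0.16, 0.10 and −0.08 on the 3 Cd36 probe sets (adjusted p = 0.767, 0.914 and 0.947). β-catenin active lay above FoxO1 deleted by 0.40 ± 0.17, 0.41 ± 0.19 and 0.72 ± 0.24 (adjusted p = 0.615, 0.672 and 0.416).

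The endothelial signal was also highest in β-catenin active arrays. The summed linear signal of all 12 endothelial markers ran from 11800 to 13500 in β-catenin active, 10900 to 11200 in FoxO1 deleted and 10100 to 10400 in wild-type arrays, with no overlap between genotypes. Of these 12 genes 0 passed the adjusted test for β-catenin active against wild type, against 0.507% of all tested probe sets. In limma 8 had an unadjusted p under 0.05, all of them higher, against 5.57% of all tested probe sets that were higher at that level. The median difference was 0.37. Of the 12 differences 10 were positive and 2 negative. Pecam1 measured 9.04 to 9.34 and Kdr 10.03 to 10.31 in β-catenin active arrays, against 8.47 to 8.99 and 9.63 to 9.85 in wild-type arrays. Tek overlapped, at 9.64 to 10.1 against 9.61 to 9.88. Vwf and Cldn5 were lower on average, at 9.63 against 9.74 and 9.61 against 9.68. The part of endothelial RNA in the Cd36 values was not tested, nor was that of muscle RNA, whose markers are given with Lpl below. Xist level was mixed across these arrays too. With the low-Xist arrays alone, β-catenin active 1, 2 and 3 were set against wild type 1 and 2. The Cd36 difference was then 0.79, 0.74 and 0.76 (limma adjusted p = 0.0888, 0.105 and 0.172). Wild type 1 and 2 correlated at r = 0.988 and were lower than wild type 3 and 4 on every Cd36 probe set.

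Fabp4, a cytoplasmic fatty acid carrier that is also made by macrophages and capillary endothelium, was read by 4 probe sets. Probe set 1417023_a_at measured 13.44, 13.46 and 13.06 in β-catenin active arrays, 13.11, 13.01 and 12.41 in FoxO1 deleted arrays, and 12.95, 13.02, 12.97 and 12.99 in wild-type arrays. Probe set 1451263_a_at measured 12.44, 12.38 and 11.99 in β-catenin active arrays, 11.74, 12.16 and 10.73 in FoxO1 deleted arrays, and 11.82, 11.92, 11.97 and 11.91 in wild-type arrays. On both, every β-catenin active array lay above every wild-type array, narrowly for the second (11.99 against 11.97), and the wild-type arrays lay very close together. Probe set 1425809_at measured 8.76, 8.71 and 8.20 in β-catenin active arrays, 8.12, 8.17 and 6.95 in FoxO1 deleted arrays, and 7.95, 8.34, 7.83 and 7.81 in wild-type arrays. Probe set 1424155_at lay between 6.71 and 7.84 with overlapping groups. FoxO1 deleted 3 was the lowest of 10 arrays on all 4 probe sets.

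No Fabp4 difference passed the test. For β-catenin active against wild type the 4 values were 0.34 ± 0.15 (1417023_a_at), 0.36 ± 0.25 (1451263_a_at), 0.57 ± 0.28 (1425809_at) and 0.05 (1424155_at), with limma adjusted p of 0.431 or more. For FoxO1 deleted against wild type they were −0.14, −0.36, −0.24 and −0.35, and without FoxO1 deleted 3 they became 0.08, 0.04, 0.16 and −0.17. The sign of the first 3 values thus rested on 1 array, whereas 1424155_at stayed negative with any 1 array left out (−0.5 to −0.17). The endothelial sum in FoxO1 deleted 3 was 11200 and the macrophage sum 30800, and their part in Fabp4 was not tested. For β-catenin active against FoxO1 deleted the values were 0.48 ± 0.16, 0.73 ± 0.27, 0.81 ± 0.30 and 0.39, with adjusted p of 0.437 or more. Without FoxO1 deleted 3 they were 0.26, 0.32, 0.41 and 0.22.

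Lpl, the lipase that frees fatty acids from circulating lipoproteins, is strong in muscle as well as in fat. Probe set 1415904_at measured 12.43, 13 and 12.63 in β-catenin active arrays, 12.68, 11.86 and 12.30 in FoxO1 deleted arrays, and 12.23, 12.23, 12.66 and 12.53 in wild-type arrays. Probe set 1431056_a_at ran from 9.50 to 10.51, lowest in FoxO1 deleted 2 and highest in β-catenin active 2, as the first did, and the pair correlated at r = 0.83. The groups overlapped on both. For β-catenin active against wild type the differences were 0.27 ± 0.19 and 0.02 (limma adjusted p = 0.657 and 0.984), and for FoxO1 deleted against wild type −0.13 and −0.23 (adjusted p = 0.893 and 0.812).

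Skeletal muscle markers varied within genotypes alongside Lpl. Their summed linear signal was 58300, 130000 and 97700 in β-catenin active arrays, 126000, 65300 and 91800 in FoxO1 deleted arrays, and 54000, 56900, 114000 and 109000 in wild-type arrays. The 3 arrays with the highest sums, β-catenin active 2, FoxO1 deleted 1 and wild type 3, also had the 3 highest values of Lpl 1415904_at. Adipoq was high in the first 2 of these arrays but at 7.74 in the third. Cd36 1423166_at was the highest of its genotype in each of the 3. The 3 Cd36 probe sets correlated with Lpl 1415904_at at r = 0.73 to 0.86. The part of muscle RNA in Lpl, Cd36 and Adipoq was not tested.

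Across the tested members, the comparison of β-catenin active with wild type leaned to higher values without any call. Of the 13 probe sets of 6 genes that passed the filter on low values, 0 passed the adjusted test, against 0.507% of all tested probe sets, and the smallest limma adjusted p was 0.135. At an unadjusted p under 0.05 there were 4 of 13, all higher, against 5.57% of all tested probe sets that were higher at that level. These 4 were the 3 Cd36 probe sets and Fabp4 1417023_a_at, so they stand for only 2 genes. With 1 probe set per gene, 2 of 6 genes were under 0.05, and the median difference was 0.28. The groups did not overlap in 5 of 13, again all higher, against 6.39% of all. Those 5 are probe sets of only Cd36 and Fabp4. All 13 differences were positive, with a median of 0.29, whereas 49.1% of all tested probe sets were positive and their median was 0. Chondrocyte marker sums, like the endothelial ones, did not overlap between these genotypes: the summed linear signal of 10 of them ran from 22500 to 30500 in β-catenin active and 13400 to 20100 in wild-type arrays. All 10 of their differences were positive, with a median of 0.71, and 0 passed the adjusted limma test, with 4 at an unadjusted p under 0.05. Sums of 2 other marker lists did not overlap either, but were lower in β-catenin active. Neutrophil and granulocyte precursor sums ran from 2780 to 3770 against 13800 to 29600. Of their 8 differences all were negative, with a median of −2.62, and 2 passed the adjusted limma test. Erythroid sums, of 5 genes, ran from 760 to 1170 against 1480 to 3990, with a median difference of −2.07 and 0 passing. The part of other cell types in the members' values was not tested.

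FoxO1 deleted against wild type gave no such lean. Of the 13 probe sets 0 passed the adjusted test, against 0.0149% of all tested, 0 had an unadjusted limma p under 0.05, against 7.9% of all, and 0 separated the groups, against 9.07%. There were 6 positive and 7 negative differences, and the median was −0.08, against −0.01 over all probe sets. The smallest adjusted p was 0.749. The chondrocyte sum ran from 21700 to 58800 in FoxO1 deleted arrays, again above the wild-type range. All 10 of its genes were higher at an unadjusted limma p under 0.05, with a median of 1.09, and 0 passed. Endothelial sums, 10900 to 11200, also lay above wild type (10100 to 10400). Neutrophil and granulocyte precursor sums, 1280 to 10200, lay below it (13800 to 29600), with a median difference of −2.16 and 0 passing. The part of other cell types in the members was not tested.

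β-catenin active against FoxO1 deleted shares its arrays with both comparisons above. Here 0 of 13 passed, against 0.442% of all tested, and 5 had an unadjusted limma p under 0.05, all higher, against 4.5% of all that were higher. All 5 were probe sets of Cd36 or Fabp4, and with 1 probe set per gene the count was 1 of 6. The groups did not overlap in 2 of 13, Fabp4 1425809_at and Cd36 1450884_at, against 5.42% of all. Of the 13 differences 12 were positive, with a median of 0.40, against 51.7% positive and a median of 0.01 over all.

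**Figure D4:**
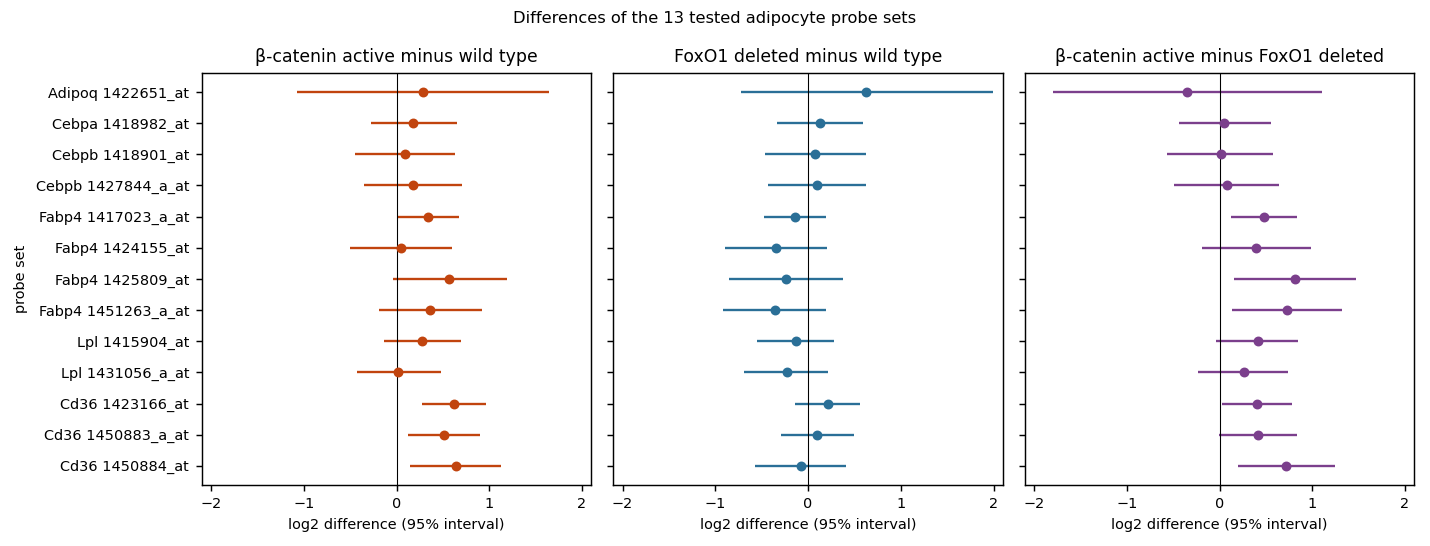
Log2 differences with 95% intervals (x axis) are given for the 13 tested adipocyte probe sets (y axis) in the 3 comparisons. For β-catenin active against wild type all 13 points lie right of 0, the Adipoq interval spans −1.07 to 1.64 and the Cd36 1423166_at interval 0.27 to 0.97.

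Beyond the members, adipocyte genes were split in signal. The filter on low values was passed by 19 of 24 lipid synthesis and storage genes with a listed probe set. It was passed by 9 of 10 secreted factors and receptors and 7 of 12 brown adipocyte genes. Over the whole array 11357 of 18194 genes passed it, so a split is not particular to adipocyte genes. Plin2, a lipid droplet coat protein, lay between 10.15 and 11, Slc2a4, the insulin-responsive glucose transporter, between 7.98 and 8.95, and Prdm16, a regulator of brown fat, between 7.46 and 8.24. Among the genes that did not pass, Lep, the hormone leptin, lay between 0.54 and 3.84, Cidec, a lipid droplet protein, between 0.92 and 5.06, Lipe, hormone-sensitive lipase, between 6.6 and 7.08, and Ucp1, the brown fat uncoupling protein, between 2.70 and 6.16. With Pparg and Retn these lay below the table's median in all 10 arrays, while Adipoq was above it in 8. Low MAS5 signal does not show that a transcript is absent.

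Lipid synthesis and storage genes showed no call. Of 25 listed, 19 were tested, and 0 passed for either genotype against wild type. The medians were 0.22 in β-catenin active (14 of 19 positive) and 0.09 in FoxO1 deleted (10 of 19 positive). Over all 11357 genes the median was 0 for each, and 49.1% and 46.9% of all tested probe sets were positive. Scd1, the desaturase of stearic acid, measured 10.64, 10.41 and 10.81 in β-catenin active arrays, 10.39, 9.66 and 10.10 in FoxO1 deleted arrays, and 10.02 to 10.20 in wild-type arrays. Its β-catenin active minus wild type difference was 0.52 ± 0.15 (limma adjusted p = 0.185). Mgll, which cleaves monoglycerides, differed by 0.43 ± 0.14 in β-catenin active (adjusted p = 0.227). Agpat2, an acyltransferase of triglyceride synthesis, differed by 0.36 ± 0.12 in FoxO1 deleted (adjusted p = 0.518), and Plin4, a lipid droplet coat protein, by 0.71 ± 0.36 (adjusted p = 0.66).

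The partners of lipoprotein lipase and fatty acid uptake were all tested, 10 of 10, and 0 passed. Their median was 0.15 in β-catenin active and 0.21 in FoxO1 deleted. Gpihbp1, which anchors Lpl on capillary endothelium, measured 11.17, 10.98 and 10.87 in β-catenin active arrays, 10.80, 10.66 and 11.08 in FoxO1 deleted arrays, and 10.36 to 10.63 in wild-type arrays. Both altered genotypes lay above wild type, by 0.48 ± 0.12 in β-catenin active (limma adjusted p = 0.108) and 0.32 in FoxO1 deleted (adjusted p = 0.566), beside the endothelial sums given above. Lrp1, a lipoprotein receptor, differed by 0.24 ± 0.10 in β-catenin active (adjusted p = 0.365), and Fabp5, a carrier related to Fabp4, by 0.37 ± 0.10 in FoxO1 deleted (adjusted p = 0.45).

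Among secreted adipocyte factors and their receptors, 9 of 11 were tested. For β-catenin active against wild type 1 of these passed the adjusted test, against 0.507% of all tested probe sets. Agt, which encodes angiotensinogen, the precursor of angiotensin made by liver and fat, measured 8.58, 9.02 and 9 in β-catenin active arrays, 8.15, 7.77 and 7.64 in FoxO1 deleted arrays, and 7.96, 7.84, 7.83 and 7.77 in wild-type arrays. β-catenin active arrays were higher than both others without overlap. The difference was 1.02 ± 0.16 against wild type (limma adjusted p = 0.0197) and 1.01 ± 0.17 against FoxO1 deleted (adjusted p = 0.0263). The call against wild type held under 13 of 23 alternatives, with values from 0.83 to 1.16. It was lost without any 1 wild-type array (adjusted p = 0.0571 to 0.0695), without β-catenin active 2 or 3 (0.0865 and 0.0831), among low-Xist arrays (0.0621), with Xist as a term (0.193), with wild-type pairs averaged (0.269) and with the replicate number as a block (0.181). The call against FoxO1 deleted held under 12 of 22, with values from 0.78 to 1.16. The part of other cell types in Agt was not tested.

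Regulators of adipocyte differentiation gave no call. Of 18 drivers 16 were tested and 0 passed, with medians of 0.02 in β-catenin active and 0.05 in FoxO1 deleted. Ebf1, a driver, differed by 0.40 ± 0.13 in β-catenin active (limma adjusted p = 0.249), Rxra, the DNA-binding partner of PPARγ, by 0.25 in FoxO1 deleted (adjusted p = 0.628), and Klf5 by −0.27 in β-catenin active and −0.38 in FoxO1 deleted (adjusted p = 0.708 and 0.676). Of 13 restrainers 9 were tested and 0 passed, with medians of 0 and 0.03. Twist1 differed by −0.31 ± 0.11 and Hes1 by 0.46 in β-catenin active (adjusted p = 0.266 and 0.551), and Sirt1 by −0.23 and Gata2 by −0.21 in FoxO1 deleted (adjusted p = 0.742 and 0.75).

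Of 12 brown adipocyte genes 7 were tested and 0 passed. All 7 differences were positive in β-catenin active, with a median of 0.34, and 5 of 7 in FoxO1 deleted, with a median of 0.31. For Dio2 the positive sign in β-catenin active rested on array 1, at 10.4. Arrays 2 and 3, at 7.8 and 7.84, lay below all wild-type arrays (8.01 to 8.16). Of all tested probe sets, 49.1% were positive in β-catenin active and 46.9% in FoxO1 deleted. Cox7a1, a cytochrome oxidase subunit shared with muscle, differed by 0.72 ± 0.32 in β-catenin active (limma adjusted p = 0.419). Zic1, a transcription factor gene used as a brown fat marker, differed by 0.23 in β-catenin active (adjusted p = 0.581) and by 0.47 ± 0.14 in FoxO1 deleted (adjusted p = 0.48). Zic1 lay between 12.52 and 13.36 over all arrays, whereas Ucp1 lay between 2.7 and 6.16. Ppargc1b, a coactivator of mitochondrial genes, differed by −0.22 in FoxO1 deleted (adjusted p = 0.684). The part of muscle RNA and of other cell types in this list was not tested.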

How the data were processed

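Biotin-labelled cRNA from 500 ng of Trizol-extracted total RNA was hybridised to Affymetrix arrays, per the labels' protocols. The authors deposited log2 signal from MAS5, whose version the submitters' processing notes leave out. A log2 base was read off the range of −3.86 to 15.86, since the linear mean of each array, with 2% trimmed at each end, then comes to about 500. The deposited log2 signal was used as given. The number of arrays limits the precision, and the labels do not say whether all are independent.

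Gene names came from the platform annotation, which lists 1 gene for 34958, several for 932 and none for 9211 probe sets. Gene IDs of 99.4% of the 1-gene probe sets were found in the RefSeq table of GRCm38.p6. A probe set was tested if the third-highest of its 10 values exceeded the table's median of 7.15, which kept 20127. limma 3.58.1 in R 4.3.3 fitted 1 mean per genotype to all 10 arrays, with no covariates, eBayes with a trend, two-sided tests and 7 residual degrees of freedom. Benjamini-Hochberg adjustment ran over all 20127 probe sets, at a threshold of 0.05. For gene lists, the kept probe set with the highest mean stood for its gene. The procedure was tested on simulated data.

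All members were named with every probe set. From each pathway list, the genes that passed in any comparison were named, or else the 2 with the smallest p in each comparison with wild type. Members, lists and tests were chosen with earlier results of these data known. The alternatives were another scaling, filter, offset, set of samples, spread model, replicate block, Xist term, averaged wild-type pairs, and each array left out. Promoters were searched with Python 3.11.15.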

Additional observations from a re-analysis of the deposited data

Results flagged for a closer look

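One array was far from the others of its group. Pparg 1420715_a_at measured 6.85 in wild type 1, and 6.01 to 6.14 in the other 3 wild-type arrays. It was found by comparing the gap between the highest array and its neighbour with the range of the 4 wild-type arrays, in which 1 in 20 groups is marked by chance, over 15 probe sets. All 4 values lie below the table's median of 7.15.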

How the results depend on the processing

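The count of adipocyte probe sets past the threshold was 0 under each of the 23 alternatives for β-catenin active against wild type and each of the 22 for the other comparisons, where the low-Xist arrays alone were not run. Of 844 member differences recomputed, 793 kept their direction and side of the threshold, 51 changed sign and 0 passed the threshold. The cause of these sign changes was not tested. The arrays low in Xist were set apart after seeing the data.

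In β-catenin active against wild type, the replicate block gave −0.02 for Cebpb 1418901_at and −0.09 for Fabp4 1424155_at. The Xist term gave −0.07 for Adipoq, −0.03 for Cebpa, −0.18 for Fabp4 1424155_at and −0.07 for Lpl 1431056_a_at. Array weights gave −0.03 for Fabp4 1424155_at and −0.01 for Lpl 1431056_a_at. The low-Xist arrays gave −0.11 for Cebpa, −0.14 and −0.08 for Cebpb and −0.18 for Fabp4 1424155_at. Leaving out 1 array each gave −0.28 to 1.02 for Adipoq, −0.05 to 0.19 for Cebpb 1418901_at, −0.09 to 0.23 for Fabp4 1424155_at and −0.12 to 0.19 for Lpl 1431056_a_at.

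For FoxO1 deleted against wild type, the replicate block gave −0.03 for Cebpb 1418901_at. Array weights, which were 0.381 for FoxO1 deleted 3 and 2.48 for FoxO1 deleted 1, gave −0.22 and −0.19 for Cebpb, 0.03 for Fabp4 1417023_a_at, 0.11 and 0.05 for Lpl and 0.23 for Cd36 1450884_at. Leaving out 1 array each gave −0.27 to 0.30 and −0.21 to 0.31 for Cebpb, −0.27 to 0.08, −0.45 to 0.16 and −0.67 to 0.04 for Fabp4 1417023_a_at, 1425809_at and 1451263_a_at, −0.33 to 0.08 for Lpl 1415904_at, and −0.06 to 0.18 and −0.33 to 0.16 for Cd36 1450883_a_at and 1450884_at.

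In β-catenin active against FoxO1 deleted, median scaling gave −0.03 for Cebpb 1418901_at, the Xist term −0.21 for Cebpa and array weights −0.06 for Lpl 1431056_a_at. Leaving out 1 array each gave −1.14 to 0.38 for Adipoq, −0.08 to 0.16 for Cebpa, and −0.21 to 0.36 and −0.14 to 0.39 for Cebpb.

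Over all probe sets, 102 passed for β-catenin active against wild type. There were 170 with only the groups compared, 20 with the replicate block, 14 with the Xist term, 13 with wild-type pairs averaged, 205 in low-Xist arrays and 37 to 143 with 1 array left out. For FoxO1 deleted against wild type, 3 passed, 1 higher and 2 lower. There were 1 with median scaling (1 higher and 0 lower), 1 with only the groups compared, 8 without the trend, 72 with array weights and 0 to 8 with 1 array left out. The replicate block and the averaged pairs gave 0, with 1093 and 626 at an unadjusted limma p under 0.05. Between β-catenin active and FoxO1 deleted, 89 passed. There were 24 with only the groups compared, 26 with the replicate block, 37 with averaged pairs, 32 to 79 with 1 array left out, and 0 with the Xist term (882 at an unadjusted p under 0.05).

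The replicate numbers did not pair the arrays: deviations of same-numbered arrays correlated at −0.26 to 0.24, and 1 of 9 correlated best with its own number. The block moved the call of Agt in β-catenin active to an adjusted p of 0.181.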

Other observations

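Dlk1, which encodes the preadipocyte protein Pref-1 and was singled out after its values were seen, also varied within genotypes. It measured 10.47, 13.11 and 12.34 in β-catenin active arrays, 12.65, 11.46 and 12.15 in FoxO1 deleted arrays, and 11.84, 11.53, 12.87 and 12.68 in wild-type arrays. The lowest 2 arrays of Dlk1 were β-catenin active 1 and FoxO1 deleted 2, as for Adipoq. In both altered genotypes the order of Dlk1 was also that of the skeletal muscle sums. In wild type Dlk1 and the muscle sums were higher in arrays 3 and 4, whereas Adipoq lay between 7.59 and 7.84. The part of muscle RNA in Dlk1 was not tested. Nampt, an enzyme of NAD synthesis that fat cells also secrete, was likewise singled out afterwards. It measured 10.62 in FoxO1 deleted 3 and 8.89 to 9.17 in the other arrays. FoxO1 deleted 3 also held the highest macrophage sum, 30800, and the part of macrophage RNA in Nampt was not tested.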
